A study of Homo sapiens with 12 samples.

Results

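The 9 genes described here encode the U2, U4 and U5 small nuclear RNAs of the major spliceosome: 2 U2 genes, 2 U4 genes and 5 U5 genes, out of 60708 features in the deposited tables. They were taken by Ensembl identifier, and all 9 were present and passed the filter on low counts. The set was selected from earlier results of these data, the IL-17 effects among them, and which values were used was not recorded. Both IL-17 comparisons below therefore describe the genes and do not test them.

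The spliceosome removes introns through RNA pairing that changes step by step. U2 RNA pairs with the branch point of the intron. U4 RNA holds U6 RNA inactive in a shared particle with U5 and leaves when the spliceosome is activated, and a loop of U5 RNA holds the ends of both exons for joining. These RNAs are abundant in nuclei of all cell types, are transcribed by RNA polymerase II from their own promoters, and end without a poly(A) tail. Each family has several near-identical gene copies, and the U5 copies differ in part of their sequence and are known as variants A to F.

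The 12 libraries came from HK2, an immortalised line of human kidney proximal tubule epithelium, whose markers were not checked here because the files do not pair identifiers with names. All cells received 10 µg of plasmid for FLAG-hArid5a, a tagged form of the RNA-binding protein Arid5a, so every group carries the transfected protein and none lacks it. After 3 hours with 200 ng/mL IL-17 or with medium, RNA was precipitated with anti-FLAG or with mouse IgG1 as the background control. This gave IgG medium, IgG IL-17, FLAG medium and FLAG IL-17, with 3 libraries each. Libraries were made with SMART-Seq v4, a kit for small amounts of RNA. Whether it captures RNAs without a poly(A) tail in proportion to their amount was not tested, so counts here need not follow that amount. Nothing in the labels says that replicates were separate cultures, so errors may be technical. More RNA per cell, more cells and more precipitate cannot be told apart in such samples.

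Depth differed with treatment: total estimated counts ran from 746911 to 7563480 in the 6 medium libraries and from 5365500 to 17723100 in the 6 IL-17 libraries. A total of 4 libraries stood apart. IgG medium replicate 1 was the shallowest, and IgG IL-17 replicate 1, IgG medium replicate 2 and FLAG medium replicate 1 held the most features at an equal depth of 740000 counts. The 9 genes together took from 0.0599% to 0.204% of all counts in the IL-17 libraries and from 0.00803% to 0.045% in the medium libraries.

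In RefSeq on GRCh38.p14, RNU2-2 (ENSG00000222328) lies on chromosome 11 from 62841619 to 62841809, inside the span of the protein-coding gene WDR74. RNU2-1 (ENSG00000274585) lies on chromosome 17 from 43233790 to 43233977 and overlaps no other listed gene. RNU4-2 (ENSG00000202538) and RNU4-1 (ENSG00000200795) lie on chromosome 12, from 120291759 to 120291903 and from 120293093 to 120293237. They are 1189 bases apart and both overlap the span of SIRT4. RNU5A-1 (ENSG00000199568) and RNU5B-1 (ENSG00000200156) lie on chromosome 15, from 65296051 to 65296167 and from 65304677 to 65304793.

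RNU5F-1 (ENSG00000199377) lies on chromosome 1 from 44721785 to 44721902, inside the spans of ARMH1 and LOC105378690. RNU5D-1 (ENSG00000200169) lies 9166 bases away, from 44731069 to 44731170. RNU5E-1 (ENSG00000199347) is elsewhere on chromosome 1, from 11908152 to 11908272. The 9 genes are 102 to 191 bases long. The strand setting of the counting step was not stated, so reads of an overlapping gene could be counted for RNU2-2, RNU4-1, RNU4-2 or RNU5F-1. Estimated counts were not whole in all 12 libraries for RNU2-1 and RNU2-2 and in 11 for RNU5E-1, which shows that reads were divided with other features. They were whole in every library for RNU5D-1 and RNU5F-1.

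**Figure D1:**
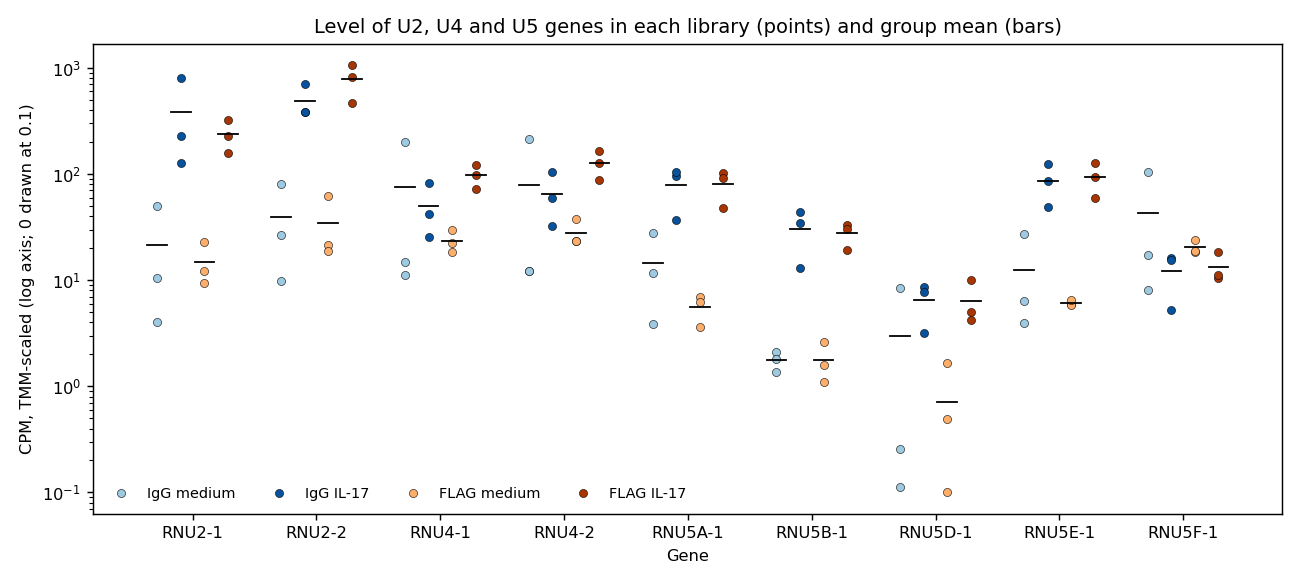
Level of each gene in CPM scaled by TMM (log axis) for the 12 libraries, with each point a library and each bar the mean of 3. RNU2-1, RNU2-2, RNU5A-1, RNU5B-1 and RNU5E-1 lie higher in the IL-17 libraries with either antibody, whereas RNU5F-1 does not.

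Levels are given as CPM, the depth-scaled count, after scaling by TMM factors. They compare 1 gene between libraries and not 1 gene with another. RNU2-2, once annotated as a pseudogene of U2, had 464, 1057 and 826 CPM in FLAG IL-17 against 21.6, 62.4 and 18.9 CPM in FLAG medium. In IgG libraries it had 381, 706 and 383 CPM with IL-17 and 81.2, 26.7 and 9.74 CPM in medium. All 3 IL-17 libraries were above all 3 medium libraries with either antibody.

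RNU2-1, the U2 gene of the tandem array on chromosome 17, had 157, 321 and 230 CPM in FLAG IL-17 and 12.2, 22.8 and 9.47 CPM in FLAG medium. In IgG IL-17 it had 798, 230 and 126 CPM, and in IgG medium 49.6, 10.4 and 4.05 CPM. Groups did not overlap with either antibody. The 798 CPM came from IgG IL-17 replicate 1, 1 of the libraries that stood apart.

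RNU4-1 and RNU4-2 encode the partner of U6. RNU4-1 had 71.8, 123 and 98.1 CPM in FLAG IL-17 against 22.5, 29.8 and 18.4 CPM in FLAG medium, and RNU4-2 had 87.9, 164 and 127 CPM against 23.3, 37.4 and 23.2 CPM. The FLAG groups did not overlap for either gene.

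In IgG libraries the U4 groups did overlap. RNU4-1 had 25.3, 81.4 and 42.2 CPM with IL-17 and 199, 11.1 and 14.9 CPM in medium. RNU4-2 had 32.7, 104 and 59.2 CPM with IL-17 and 214, 12.2 and 12.3 CPM in medium. The 199 and 214 CPM were both in IgG medium replicate 1, and rested on 94 and 101 counts. In the other IgG medium libraries both genes were below every IgG IL-17 library.

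RNU5A-1 had 47.5, 103 and 91.3 CPM in FLAG IL-17 and 3.6, 6.93 and 6.24 CPM in FLAG medium. In IgG it had 37.1, 96.8 and 104 CPM with IL-17 and 27.6, 3.85 and 11.8 CPM in medium. RNU5E-1 had 59.1, 127 and 93.9 CPM in FLAG IL-17 and 6.01, 5.8 and 6.57 CPM in FLAG medium. Both U5 genes were higher in every IL-17 library than in any medium library of the same antibody.

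RNU5E-1 in IgG libraries had 49.0, 124 and 86.4 CPM with IL-17 and 27.0, 3.92 and 6.33 CPM in medium. RNU5B-1 had 19.4, 33.3 and 30.0 CPM in FLAG IL-17 against 1.11, 1.59 and 2.63 CPM in FLAG medium. In IgG, RNU5B-1 had 13.2, 44.0 and 34.7 CPM with IL-17 and 2.12, 1.358 and 1.79 CPM in medium, where its counts were 1, 12 and 7. These groups did not overlap, and the medium values rest on few counts.

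RNU5D-1 had the lowest mean count of the 9 genes in each of the 4 groups. It had 77, 115 and 54 counts in FLAG IL-17 and 0, 5 and 10 in FLAG medium, and 26, 80 and 85 in IgG IL-17 against 4, 1 and 1 in IgG medium. The count of 0 in FLAG medium replicate 1 allows up to 0.832 CPM, from a floor of 3 counts that covers counting error only. FLAG groups did not overlap, whereas IgG groups did, because the 4 counts of IgG medium replicate 1 made 8.48 CPM.

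RNU5F-1 went its own way among the 5 U5 genes, and it alone of these lies inside the spans of other listed genes. Whether reads of those genes entered its counts was not tested. It had 10.4, 18.3 and 11.2 CPM in FLAG IL-17 and 18.6, 18.8 and 23.7 CPM in FLAG medium. Each FLAG IL-17 library was thus below each FLAG medium library, which also held for 11% of all features. In IgG libraries it had 5.29, 16 and 15.6 CPM with IL-17 and 104, 8.15 and 17.2 CPM in medium, and the groups overlapped. The 104 CPM again came from IgG medium replicate 1, with 49 counts.

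IL-17 over medium was fitted with edgeR's quasi-likelihood test on all 12 libraries and 24040 features, in which an adjusted p under 0.05 made a call. In FLAG libraries 5 of the 9 genes were called higher (RNU2-1, RNU2-2, RNU5A-1, RNU5B-1 and RNU5E-1), where 0.22% of all features were, and 0 were called lower, where 0.00416% were. At an unadjusted p under 0.05, edgeR had 7 of 9 higher (3.05% of all features) and 0 lower (7.86%). The groups did not overlap for 8 genes that were higher (17.3% of all features) and 1 that was lower (11%). In the deposited TPM the FLAG groups were apart for RNU5B-1 alone among genes that were higher (0.749% of all features) and for RNU5F-1 alone among those that were lower (24.6%), and overlapped for the other 7. These counts may follow from how the genes were chosen and are therefore not evidence for a change.

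Fitted log2 fold changes in FLAG were 4.51 ± 0.75 (SE) for RNU2-2 and 3.98 ± 0.79 for RNU2-1. Those of RNU5B-1, RNU5E-1 and RNU5A-1 were 3.93 ± 0.74, 3.91 ± 0.67 and 3.83 ± 0.68. The SEs of these U2 and U5 genes overlapped. RNU5D-1 had 3.11 ± 1.59, RNU4-2 2.17 ± 0.77 and RNU4-1 2.05 ± 0.76, and RNU5F-1 had -0.62 ± 0.71. The median of the 9 genes was 3.83, against -0.29 for all features tested.

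The calls in FLAG depended on single libraries. For the fits that follow, the share of all features called was not computed. Without FLAG medium replicate 3 none of the 9 genes was called by edgeR, and without FLAG medium replicate 2 or FLAG IL-17 replicate 2 only RNU2-2 was. Without FLAG medium replicate 1 RNU2-2 and RNU5E-1 were called, and without FLAG IL-17 replicate 3 or IgG IL-17 replicate 2 RNU2-2, RNU5A-1 and RNU5E-1 were. Without the 4 libraries that stood apart, 7 genes were called higher, both U4 genes included.

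In IgG libraries edgeR called 0 of the 9 genes higher (0.0125% of all features) and 0 lower (0%). At an unadjusted p under 0.05, it had 5 of 9 higher, where 3.79% of all features were, and 1 lower, RNU5F-1, where 1.78% were. DESeq2 called 5 higher: RNU2-1, RNU2-2, RNU5A-1, RNU5B-1 and RNU5E-1. Its share of calls over all features was not computed. Groups did not overlap for 5 genes that were higher (9.71% of all features) and for 0 that were lower (1.93%). In TPM the IgG groups were apart for 0 genes that were higher (2.2% of all features) and for 2 that were lower, RNU4-1 and RNU5F-1 (3.98%). Fitted log2 fold changes were 4.41 ± 0.83 (SE) for RNU2-1, 4.22 ± 0.81 for RNU5B-1, 3.74 ± 0.74 for RNU2-2, 3.08 ± 0.68 for RNU5E-1 and 2.67 ± 0.67 for RNU5A-1.

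RNU5D-1 had 1.63 ± 1.66 in IgG, RNU4-2 -0.20 ± 0.76, RNU4-1 -0.51 ± 0.75 and RNU5F-1 -1.70 ± 0.75. The median of the 9 genes was 2.67, against 0.18 for all features. These values depended on IgG medium replicate 1, without which the median of the 9 genes was higher, at 4.03. Without this library, RNU4-1 had 1.91, RNU4-2 2.39 and RNU5F-1 -0.08, and the 5 U2 and U5 genes named above were called by edgeR. The share of all features called in that fit was not computed.

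**Figure D2:**
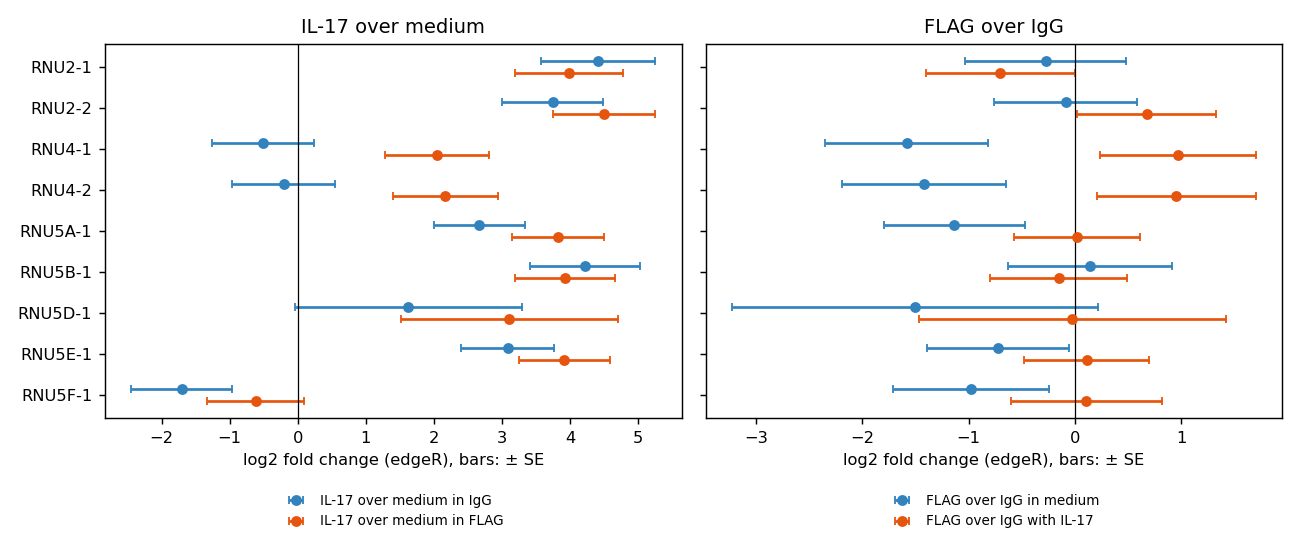
Fitted log2 fold changes of the 9 genes with SE bars, for IL-17 over medium (left) and FLAG over IgG (right). With IL-17, U2 genes and 4 of 5 U5 genes lie above 0 for either antibody, the U4 genes lie above 0 in FLAG alone, and RNU5F-1 lies below 0; without IgG medium replicate 1 the U4 genes lie above 0 in IgG too, and by TPM both lie below 0 in FLAG.

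Whether FLAG precipitation recovered these RNAs beyond IgG is the enrichment question of the design. Whether this comparison was among the earlier results used to choose the genes was not recorded, so its p values, and those of the family shares between antibodies, may not be independent of that choice. In medium edgeR called 0 of the 9 genes, as it called 0% of all features. At an unadjusted p under 0.05 there was 1 gene, RNU4-1, which was lower in FLAG, where 6.56% of all features passed in either direction. DESeq2 called 0 of the 9. No gene had groups that did not overlap, against 5.1% of all features higher and 1.11% lower.

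Adjusted p values from edgeR ran from 0.757 to 1 in medium. The log2 fold change of RNU4-1 was -1.58 ± 0.76 (SE) and that of RNU4-2 -1.42 ± 0.77. RNU2-2 had -0.09 ± 0.67, with a 95% interval from -1.47 to 1.301, and RNU5B-1 had 0.14 ± 0.78, from -1.45 to 1.74. The intervals are wide: those of RNU2-1, RNU2-2, RNU5B-1 and RNU5D-1 each reach beyond 1 log2 unit in both directions. Without IgG medium replicate 1 the U4 values turned to 0.81 and 1.15, and RNU2-1 and RNU2-2 had 1.003 and 0.91, none of them called. In that fit 7 of the 9 genes changed sign, and the median of the 9 moved from -0.98 to 0.81. The direction in medium thus depended on this library.

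With IL-17 edgeR again called 0 of the 9 genes for FLAG over IgG, with 0% of all features, adjusted p from 0.923 to 0.998. At an unadjusted p under 0.05 it had 0, where 2.81% of all features passed, and DESeq2 called 0. All 9 genes had overlapping groups, where 14.6% of all features did not overlap and were higher and 12.3% did not overlap and were lower. Values ran from -0.70 ± 0.70 (SE) for RNU2-1 to 0.97 ± 0.73 for RNU4-1. RNU4-2 had 0.95 ± 0.75 and RNU2-2 0.67 ± 0.65, and the 5 U5 genes lay between -0.15 and 0.11. RNU2-1 turned to 0.42 without IgG IL-17 replicate 1.

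Averaged over both treatments, edgeR called 0 of the 9 genes and 0% of all features, with adjusted p from 0.992 to 1. At an unadjusted p under 0.05 it had 0 of 9 and 4.14% of all features, and DESeq2 called 0. The averaged log2 fold changes ran from -0.76 ± 1.12 (SE) for RNU5D-1 to 0.29 ± 0.47 for RNU2-2. Without the 4 libraries that stood apart, edgeR called RNU2-1 at 1.29 and RNU4-2 at 1.06, with adjusted p of 0.048 and 0.0415. Over all settings the adjusted p reached 1 for both. In that fit IgG medium is represented by replicate 3 alone, and its spread is borrowed from the other groups.

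The change of enrichment with IL-17 had 0 of 9 genes called by edgeR, with 0% of all features. Adjusted p ran from 0.664 to 0.946, and DESeq2 called 0. At an unadjusted p under 0.05 the 2 U4 genes passed, where 7.35% of all features did, with log2 changes of 2.56 ± 1.06 (SE) for RNU4-1 and 2.37 ± 1.07 for RNU4-2. Without IgG medium replicate 1 these became 0.23 and -0.14.

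The split of counts among the genes of a family does not depend on scaling between libraries. In U5, RNU5F-1 held 63.4%, 56.0% and 58.1% of counts in FLAG medium and 61.5%, 46.9% and 46.0% in IgG medium. With IL-17 it held 7.37%, 6.29% and 4.83% in FLAG and 4.9%, 5.54% and 6.27% in IgG. RNU5F-1 was thus the leading U5 gene in each of the 6 medium libraries, IgG medium replicate 1 included, and in none of the 6 IL-17 libraries. It is the only U5 gene inside the spans of other listed genes, whose part in its counts was not tested. The exact 95% binomial interval of the lowest medium share, with 67 of 146 counts, ran from 37.6% to 54.3%, and that of the highest IL-17 share from 6.39% to 8.46%. Both cover counting error only.

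The other U5 genes held the remainder. Shares are parts of 1 total, so a rise of those genes by itself lowers the RNU5F-1 share. In FLAG the fitted log2 fold change with IL-17 was -0.62 ± 0.71 (SE) for RNU5F-1. It was 3.83 to 3.93 for RNU5A-1, RNU5B-1 and RNU5E-1. In IgG, RNU5F-1 had -1.70 ± 0.75, or -0.08 without IgG medium replicate 1, against 2.67 to 4.22 for the same genes. The split thus restates the IL-17 changes above and is no separate evidence. Over 6 libraries each, RNU5E-1 held 41.5% ± 3.68 (SD, n = 6) of U5 counts with IL-17 and 18.2% ± 2.68 (SD, n = 6) in medium. RNU5A-1 held 36.4% ± 3.45 with IL-17 and 19.7% ± 6.83 in medium, and RNU5B-1 13.3% ± 1.356 and 4.8% ± 2.25. The libraries of both treatments did not overlap for RNU5A-1, RNU5B-1, RNU5E-1 or RNU5F-1. As parts of 1 total these shares are not independent, and they have no counterpart over all features. Treatment effects were known when the genes were chosen, so the separation describes the genes and does not test them. RNU5D-1 held 2.95% ± 0.426 and 1.98% ± 2.05, which overlapped. For each count of RNU5F-1 there were 12.6 to 19.7 counts of the other 4 U5 genes with IL-17, and 0.577 to 1.17 in medium.

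**Figure D3:**
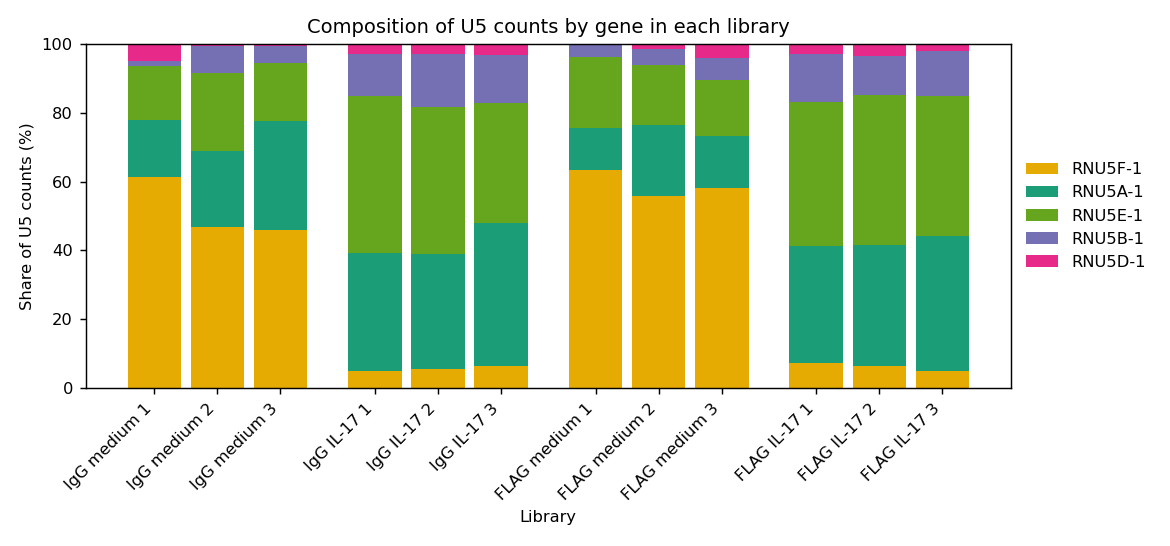
Share of U5 counts (%) held by each of the 5 U5 genes in each library. RNU5F-1 holds 46.0% to 63.4% in the medium libraries and 4.83% to 7.37% in the IL-17 libraries, with either antibody. It lies inside the spans of other genes, and whether their reads entered its counts was not tested.

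FLAG and IgG libraries overlapped in every share. Compared over 6 FLAG and 6 IgG libraries, RNU5F-1 held 32.6% ± 29.1 and 28.5% ± 25.7 (SD, n = 6 each; two-sided and exact, the permutation test gave p = 0.667, or 0.933 adjusted by Benjamini-Hochberg over 14 comparisons). RNU5E-1 held 30.0% ± 13.3 in FLAG and 29.7% ± 13.0 in IgG (n = 6 each, exact permutation p = 0.957). For the 7 shares tested, exact permutation p for FLAG against IgG ran from 0.366 to 0.957, and the smallest this design can give is 0.00216. These tests pool both treatments, so the gap between treatments widens their spread.

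RNU4-2 held more U4 counts than RNU4-1 in every library but IgG medium replicate 3, and in the 6 IL-17 libraries the exact 95% binomial interval of the RNU4-1 share lay below an even split. RNU4-1 held 41.6% to 44.97% of U4 counts with IL-17 and 44.3% to 54.7% in medium, and these ranges overlapped. In the U2 family RNU2-1 held 21.8% to 25.3% of counts in 5 IL-17 libraries and 26.8% to 37.9% in the medium libraries. IgG IL-17 replicate 1 was the exception, with 67.7%. RNU2-2 therefore led U2 in 11 of 12 libraries by estimated counts. Counts of both U2 genes were not whole in all 12 libraries, so this split depends on how shared reads were divided. The binomial intervals leave that uncertainty out. The FLAG and IgG shares were within their spread for RNU4-1 (44.8% ± 2.21 against 46.6% ± 4.69, n = 6 each, exact permutation p = 0.455) and for RNU2-1 (27.8% ± 5.71 against 35.4% ± 16.6, n = 6 each, exact permutation p = 0.366).

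**Figure D4:**
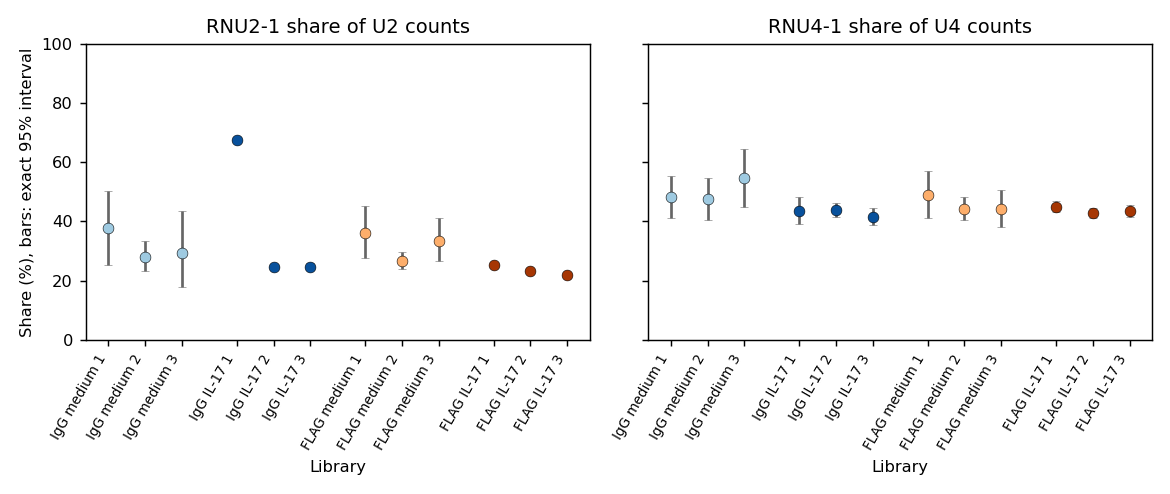
Share (%) of U2 counts held by RNU2-1 (left) and of U4 counts held by RNU4-1 (right) in each library, with exact 95% binomial intervals. RNU2-1 holds 67.7% in IgG IL-17 replicate 1 and 21.8% to 37.9% in the other 11 libraries. The intervals cover counting error only and not the division of shared reads between genes.

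The balance between families also moved with treatment. For each U4 count there were 3.89, 4.8 and 4.7 U2 counts in FLAG IL-17 and 20.3, 5.06 and 5.02 in IgG IL-17. In medium there were 0.738, 1.27 and 0.683 in FLAG and 0.316, 1.59 and 0.508 in IgG. The 20.3 belongs to IgG IL-17 replicate 1, whose U2 counts were mostly RNU2-1. U2 counts exceeded U4 counts in all 6 IL-17 libraries and in 2 of 6 medium libraries.

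The deposited TPM values, which divide each count by a length estimated for the library, gave lower IL-17 values for all 9 genes. The increases were smaller, the U4 genes in FLAG changed sign, and the values below 0 in counts were further below 0. In log2(TPM + 1), limma's IL-17 change in FLAG was 2.55 for RNU2-2, 1.93 for RNU2-1, 1.45 for RNU5A-1 and RNU5E-1 and 1.63 for RNU5B-1. It was -0.25 for RNU4-1 and -0.13 for RNU4-2, where the counts gave 2.05 and 2.17. RNU5F-1 had -3.03 in FLAG and -2.97 in IgG, where counts gave -0.62 and -1.70. Limma called 0 of the 9 genes in either IL-17 comparison. RNU5F-1 was below 0 on the log2 scale under each of the alternatives to the fit except family sums, where it has no row of its own, and the fit of IgG without the 4 libraries that stood apart, which gave 0.00.

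**Figure D5:**
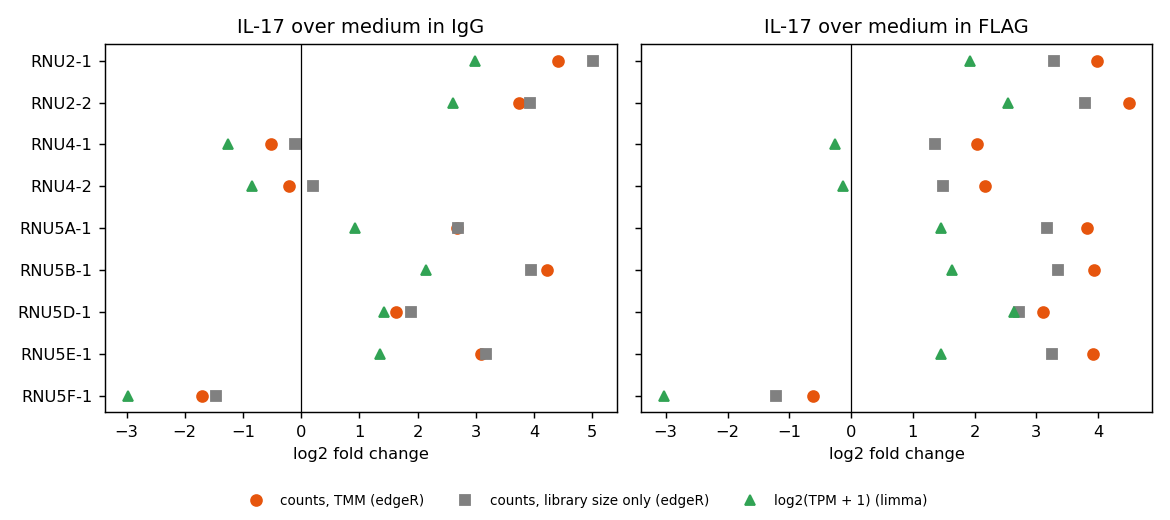
Log2 fold change with IL-17 of each gene in IgG (left) and FLAG (right) libraries, from counts with TMM, from counts with library size only, and from log2(TPM + 1). All 9 genes have lower values by TPM than by TMM counts, and the U4 genes in FLAG move from above 0 to below 0.

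TPM also gives levels per estimated length, and the order of these short genes depends on that estimate. In FLAG medium RNU2-2 had a mean of 274 counts but 408 TPM, and RNU5F-1 134 counts but 2448 TPM. These genes are 191 and 118 bases long. Their estimated lengths in medium, relative to the median feature, had medians of 0.0134 and 0.000988. The order below therefore describes TPM and does not rank the RNAs by amount. In FLAG medium RNU5F-1 had the highest mean, 2448 ± 988 TPM (SD, n = 3), followed by RNU4-2 with 1222 ± 984, RNU4-1 with 1022 ± 762 and RNU5A-1 with 754 ± 531. In FLAG IL-17 the highest were RNU5A-1 with 1894 ± 735 TPM, RNU5E-1 with 1825 ± 837 and RNU2-2 with 1592 ± 661, while RNU5F-1 had 330 ± 190. Neighbours in either order differed by less than the larger of their SDs, except RNU5F-1 and RNU4-2 in FLAG medium. In IgG libraries RNU5F-1 had 1892 ± 387 TPM in medium and 248 ± 87.5 with IL-17, and RNU5A-1 had 989 ± 542 and 1732 ± 671. RNU5D-1 was lowest in both FLAG groups, with 70.8 ± 61.9 and 163 ± 92.0 TPM.

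The length behind TPM moved with treatment. The apparent length, count over TPM relative to the median feature of a library, was 0.00155 to 0.00355 for RNU5F-1 in the IL-17 libraries. In medium it was 0.000841 to 0.00119 in 5 libraries and 0.00276 in IgG medium replicate 1. For RNU4-1 it was 0.00481 to 0.0101 with IL-17 and 0.00248 to 0.00399 in those 5 medium libraries, with 0.00857 in IgG medium replicate 1. The U5 split was similar in TPM: the library with the lowest medium share of RNU5F-1 by counts had 46.2% by TPM, and the one with the highest IL-17 share had 7.63%. Depth and apparent length thus moved with treatment beside every IL-17 result above, and their part in these results was not tested.

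The features most like each family were found by Pearson correlation of log2(CPM + 1) over the 12 libraries, among 2903 features with a mean of at least 50 CPM. For the summed U2 level it was ENSG00000278774.1 at r = 0.968, and for summed U5 ENSG00000201822.1 at r = 0.972. The closest feature to summed U4 reached r = 0.931. Points share library depth and treatment, so these values are a description. The files do not pair these identifiers with names.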

How the data were processed

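The submitters' processing notes name RSEM 1.3.1, STAR 2.7.9, R 4.2.0 and DESeq2 1.36.0, and the builds GRCh38 and hg38, with no role for any of them. The deposited estimated counts were rounded to whole numbers before testing. The deposited table named for FPKM has columns of equal total, as TPM has, and was treated as TPM; limma was run as an alternative on log2(TPM + 1) and log2(TPM + 0.1).

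Low features were removed by filterByExpr at a minimum count of 10, and libraries were scaled by TMM (factors 0.614 to 1.55) and tested with edgeR 4.0.16 in R 4.3.3, in 1 model of 4 groups over 12 libraries and 24040 features, with Benjamini-Hochberg adjustment. The common dispersion was 0.953. Shares of family counts were compared by exact permutation over libraries with at least 20 family counts; the planned permutation test of shares between treatments is not reported, because treatment effects were known when the genes were chosen. Alternatives were RLE, upper-quartile and library-size scaling, no filter, DESeq2 1.42.0, limma 3.58.1, only the groups compared, a replicate block, summed families and leaving out each library.

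The members and lists were chosen with earlier results of these data known. All 9 members were named, and per family the features with the most similar pattern were sought. Gene symbols came with the members; the RefSeq table of GRCh38.p14 matched 9 of 9 by symbol and holds 0 Ensembl identifiers. Gene lists of other spliceosomal RNAs and proteins and the cell markers were therefore not tested, and the transfected gene was not analysed here. The RefSeq promoter table matched 0 of the 9, so no sequence is printed and no motif was searched.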

Additional observations from a re-analysis of the deposited data

Results flagged for a closer look

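Among 28 sets of 6 libraries examined for the 7 shares, 4 sets, with 3 distinct values, held a library far from the other 5 by Dixon's ratio at its 95% critical value, which chance gives in about 1 of 20 sets. RNU2-1 held 67.7% of U2 counts in IgG IL-17 replicate 1, far from the other IL-17 libraries and from the other IgG libraries (ratios 0.923 and 0.69). RNU4-1 held 49.1% of U4 counts in FLAG medium replicate 1, the highest of the FLAG libraries. RNU5D-1 held 2.15% of U5 counts in FLAG IL-17 replicate 3, the lowest of the IL-17 libraries.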

How the results depend on the processing

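Counts are of the 9 genes called by edgeR unless a tool is named, and causes were not tested. The share of all features called was not computed for these alternatives, so a count may reflect a setting that calls more features. For IL-17 in FLAG (5 higher), RLE factors, upper-quartile factors and limma with either pseudocount gave 0, library size only 3 and family counts summed 2, the 2 U2 genes. DESeq2 called the same 5 genes as the main fit, and with no filter RNU4-2 was called beside them. Leaving out single libraries gave 0 to 6. For IL-17 in IgG (0 higher), library size only gave 2, no filter 5, DESeq2 5, and leaving out single libraries 0 to 5: 5 without IgG medium replicate 1, 3 without FLAG medium replicate 1, 2 without IgG IL-17 replicate 1 or any 1 FLAG IL-17 library, and 1 without IgG IL-17 replicate 3. Leaving out the 4 libraries that stood apart, chosen after seeing the data, gave 7 there, with RNU4-1 and RNU4-2 turned to 2.18 and 2.85, and 2 higher for the averaged enrichment, RNU2-1 and RNU4-2 turned to 1.29 and 1.06.

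Replicate numbers were not taken as pairs, since 9 of 18 same-numbered pairs across groups had a correlation of deviations over 0.1 (range -0.14 to 0.468), not all. All 6 pairs of replicates 3 did (0.213 to 0.392), and not every library correlated best with its own number. With a replicate block, 4 genes (RNU2-1, RNU2-2, RNU5B-1 and RNU5E-1) were called higher with IL-17 in IgG, and 5 in FLAG. No gene was called for FLAG over IgG in medium or with IL-17, or for the change, under any alternative run. Uncalled values changed sign often: at least 1 of the 9 did so in 10 of 23 settings for FLAG over IgG in medium and in 18 of 23 with IL-17, against 3 of 23 for IL-17 in FLAG.

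Leaving out single libraries moved the FLAG minus IgG difference in share of U5 counts from -1.95 to 0.846 percentage points for RNU5B-1, -0.598 to 0.275 for RNU5D-1, -2.49 to 3.42 for RNU5E-1 and -2.005 to 10.7 for RNU5F-1. It moved from -6.57 to -1.08 for RNU5A-1, and in the other families from -9.80 to -1.17 for RNU2-1 and -2.79 to -0.163 for RNU4-1. The shallowest library allows up to 6.36 CPM at a count of 0. Alternatives for the gene lists, markers and motifs were not run. With only the groups compared, RNU5B-1 and RNU5D-1 did not pass the filter for FLAG over IgG in medium, and with library size only RNU4-2 in IgG turned to 0.21 for IL-17.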
